A study of Mus musculus with 44 samples.

Results

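Matrix metalloproteinases were described through 10 genes: Mmp2, Mmp3, Mmp8, Mmp9, Mmp11, Mmp12, Mmp13, Mmp14, Mmp19 and Mmp23. They were taken by name from the 43411 genes of the deposited table, whose Ensembl identifiers were matched to symbols, and all 10 passed the filter on low values that 17037 genes passed. Another 12 matched genes of the same family, of which 7 passed the filter, were kept as a list for comparison.

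Back skin of 44 female wild-type C57Bl/6 mice was sequenced, from animals aged 8 weeks when injections began. Of these, 10 mice were injected with saline, 10 received bleomycin for 2 weeks and 10 for 4 weeks. Injections were given each day under the skin in 100 µL, with bleomycin at 1 U/mL. This concentration is that of the methods, and a supplementary figure legend of the study gives a lower one. In 6 mice injections of bleomycin for 4 weeks were followed by 6 weeks without treatment, and in 8 mice by 10 weeks, the recovery groups. The week at which the saline mice were killed is not given in the sources used here, so in the recovery groups a lasting effect of bleomycin cannot be told apart from age.
The mice carried no engineered allele, and each sample was one piece of a back skin biopsy, which holds epidermis, dermis, hair follicles, fat and some muscle. Between 8509094 and 15285577 reads fell on genes in a mouse (median 11310008). Saline mouse 1 and mouse 2 at 2 weeks of bleomycin stood furthest from their groups (median correlations with their own group of 0.9421 and 0.9378, against 0.9848 for the highest mouse), and calls that change without these mice are given beside the results. Over the 17037 genes the median log2 fold change was 0.00 in each of the 7 comparisons. The samples are bulk tissue, so fewer cells of a type and less RNA per cell cannot be told apart.

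Matrix metalloproteinases are zinc-dependent proteases that cut collagens, elastin, fibronectin, laminins and other proteins outside the cell. Most are secreted as inactive proenzymes that other proteases activate, some are anchored in the cell membrane, and the tissue inhibitors of metalloproteinases (TIMPs) block the active enzymes. In skin they are known for matrix turnover, wound repair and the passage of white blood cells, and the collagenases among them can make the first cut in fibrillar collagen.

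The genes of the family lie in different places of the GRCm38 genome. Mmp13 (chromosome 9 from 7272514 to 7283331), Mmp12 (7344381 to 7369499), Mmp3 (7445822 to 7455975) and Mmp8 (7558456 to 7568485) lie in 1 cluster on the plus strand of chromosome 9, with Mmp10 between Mmp3 and Mmp8 and Mmp27 beyond Mmp8. Mmp2 lies on chromosome 8 (92827291 to 92853420), Mmp9 on chromosome 2 (164940780 to 164955850) and Mmp14 on chromosome 14 (54431612 to 54445364), all on the plus strand. Mmp11 (75923222 to 75936496, minus strand) and Mmp19 (128790910 to 128800824, plus strand) lie on chromosome 10, and Mmp23 on chromosome 4 (155650655 to 155653384, minus strand).
Exons of Mmp12 overlap those of Mmp1b by 157 bases on the opposite strand, exons of Mmp11 those of Chchd10 by 155 bases, and exons of Mmp19 those of Tmem198b by 789 bases and of Gm47093 by 212. The library kit was stranded, but the strand setting of the counting is not given in the sources used here, so the values of these 3 genes are uncertain to that extent. Mmp1b was near 0 in all groups, with at most 4.36 normalized counts in any mouse.

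Of the 10 genes, 7 had a promoter in the RefSeq table (GRCm38.p6), with 9 promoters in all, each from 250 bases before to 50 bases after the annotated start. Mmp2, Mmp9 and Mmp19 had none there. The AP-1 motif TGANTCA, the letters that dimers of Fos and Jun proteins are known to bind, was searched on both strands and was in 3 of the 9 promoters (Mmp3, Mmp13 and the second promoter of Mmp12), against 7.81% of 32851 promoters of the same length. Also searched on both strands, the TATA motif TATAAA was in 4 of the 9 (13.6% of all) and the RUNX motif TGTGGT in 3 (16.8% of all). The TATA letters began 7 bases before the start in Mmp3 and 16 in Mmp13. In the second promoter of Mmp12 they began after the start, at base 5. In Mmp8 they lay on the opposite strand, from 3 bases before the start. No position of these motifs overlapped another in the sequences shown.
The promoters of Mmp8, Mmp11, Mmp14 and Mmp23 held no AP-1 motif, and of these genes Mmp8 was called higher than with saline at 2 and 4 weeks of bleomycin. The last 150 bases before the start are printed for the 3 promoters with an AP-1 motif and for Mmp14, which had none. They are Mmp3 (chr9:7445672-7445821), the second promoter of Mmp12 (chr9:7347224-7347373), Mmp13 (chr9:7272364-7272513) and Mmp14 (chr14:54431448-54431597), all on the plus strand, from RefSeq (GRCm38.p6). Capitals mark AP-1 and TATA motifs.
Mmp3: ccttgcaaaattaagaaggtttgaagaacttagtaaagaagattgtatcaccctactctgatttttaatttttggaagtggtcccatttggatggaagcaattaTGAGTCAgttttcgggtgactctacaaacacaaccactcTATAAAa
Mmp12: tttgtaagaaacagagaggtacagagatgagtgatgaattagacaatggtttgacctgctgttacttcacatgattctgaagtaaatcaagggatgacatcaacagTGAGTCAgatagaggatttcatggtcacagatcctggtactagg
Mmp13: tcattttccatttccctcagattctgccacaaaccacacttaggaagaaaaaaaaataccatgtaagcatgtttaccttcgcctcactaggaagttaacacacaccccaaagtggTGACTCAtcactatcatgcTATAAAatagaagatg
Mmp14: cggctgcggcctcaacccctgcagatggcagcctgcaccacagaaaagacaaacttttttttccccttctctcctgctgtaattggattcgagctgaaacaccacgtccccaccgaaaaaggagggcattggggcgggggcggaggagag
The AP-1 letters began 46 bases before the start in Mmp3, 44 in Mmp12 and 35 in Mmp13. Among genes of the family that are no members, the promoters of Mmp1a, Mmp1b, Mmp7, Mmp10 and Mmp20 also held them, and of these Mmp10 rose under bleomycin while Mmp1b, Mmp7 and Mmp20 were too low to be tested. A match of letters is a description of the sequence and not a bound site.

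The level of each gene, in normalized counts per kb of its exons, set the order within the family. Exons of all annotated transcripts of a gene were merged (1801 bases for Mmp3 and 5960 for Mmp14). The order therefore depends on the annotation as well as on the counts. With saline, Mmp2 was at 1146 ± 223 (SD, n = 10) per kb, Mmp14 at 443 ± 93.9, Mmp3 at 211 ± 68.6 and Mmp11 at 114 ± 146. Mmp23 followed at 95.4 ± 12.2, Mmp19 at 75.1 ± 13.6, Mmp9 at 66 ± 17.7, Mmp12 at 21.8 ± 9.97, Mmp13 at 5.41 ± 4.26 and Mmp8 at 0.959 ± 0.881. The range of Mmp2 (729 to 1439 per kb) lay above that of Mmp14 (290.5 to 619), whereas the range of Mmp14 overlapped that of Mmp3 (151 to 377). Each later gene in this order also overlapped the range of its neighbour.
Mmp2, the gelatinase of connective tissue cells, held 52.6% of the summed per-kb level of the 10 genes with saline, on average over mice (46.8% to 56.5%). Mmp3 held 9.96% with saline (5.84% to 19.6%) and 23.4% at 2 weeks of bleomycin (15.5% to 38.7%). At 2 weeks and at 4 weeks of bleomycin Mmp3 stood second in the order, at 508 ± 158 and 618 ± 109.8 per kb, with Mmp14 next at 329 ± 74.4 and 511 ± 105. The ranges of these neighbours overlapped at both times. Before scaling by length Mmp14 had more normalized counts than Mmp3, with means of 1962 against 915 at 2 weeks and 3048 against 1113 at 4 weeks.

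**Figure D1:**
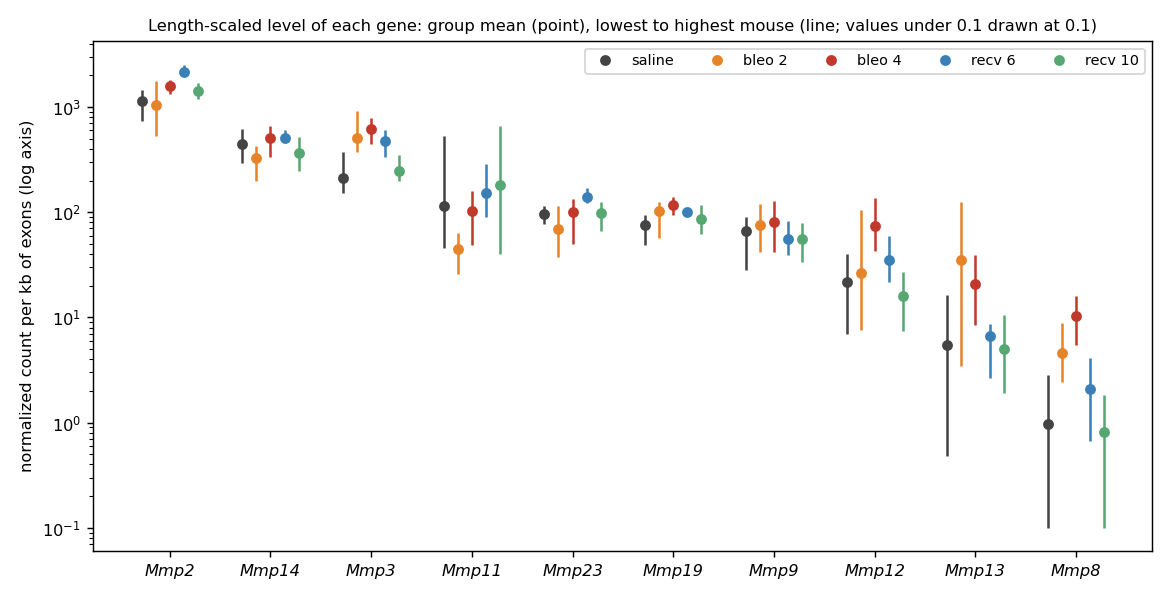
Level of the 10 genes in normalized counts per kb of exons on a log axis, ordered by the saline mean; points are group means and lines run from the lowest to the highest mouse, with values under 0.1 drawn at 0.1. By group mean Mmp2 is highest and Mmp8 lowest in every group. On this length-scaled measure the mean of Mmp3 passes that of Mmp14 in both groups under bleomycin, with overlapping ranges.

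A gene was called when its absolute fold change was above 1.5 and its adjusted p was below 0.05 (limma on log2(normalized count + 1), Benjamini-Hochberg over all genes tested). At 2 weeks of bleomycin 3 of the 10 genes were called higher than with saline and 1 lower, where 9.3% of all genes tested were higher and 7.43% lower. At 4 weeks 5 were higher and none lower (background 10.5% and 7.37%), at 6 weeks of recovery 2 were higher and none lower (3.33% and 1.71%), and at 10 weeks of recovery none was called (2.05% and 0.998%). At 10 weeks of recovery 1 of the 10 had an unadjusted limma p under 0.05, and edgeR and DESeq2 called 0 of them. The median log2 fold change of the 10 genes was 0.09, 0.56, 0.65 and 0.04 in these comparisons. The comparisons share the same 10 saline mice. Where groups are said below not to overlap, the share of all genes tested that were separated in this way was not counted.
From 2 to 4 weeks of bleomycin 5 of the 10 were higher and none lower (background 1.49% and 0.863%, median 0.59). When 6 weeks of recovery followed 4 weeks of bleomycin, none was higher and 3 were lower (4.8% and 7.14%, median -0.30). From 6 to 10 weeks of recovery none was higher and 1 was lower (0.0176% and 0.0704%, median -0.51). By unadjusted limma p under 0.05, 2 of the 10 were higher and 5 lower in the comparison of 6 weeks of recovery with 4 weeks of bleomycin. The share of all genes under this unadjusted limit was not counted, here or at 10 weeks of recovery, and the percentages given are for the calls.

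**Figure D2:**
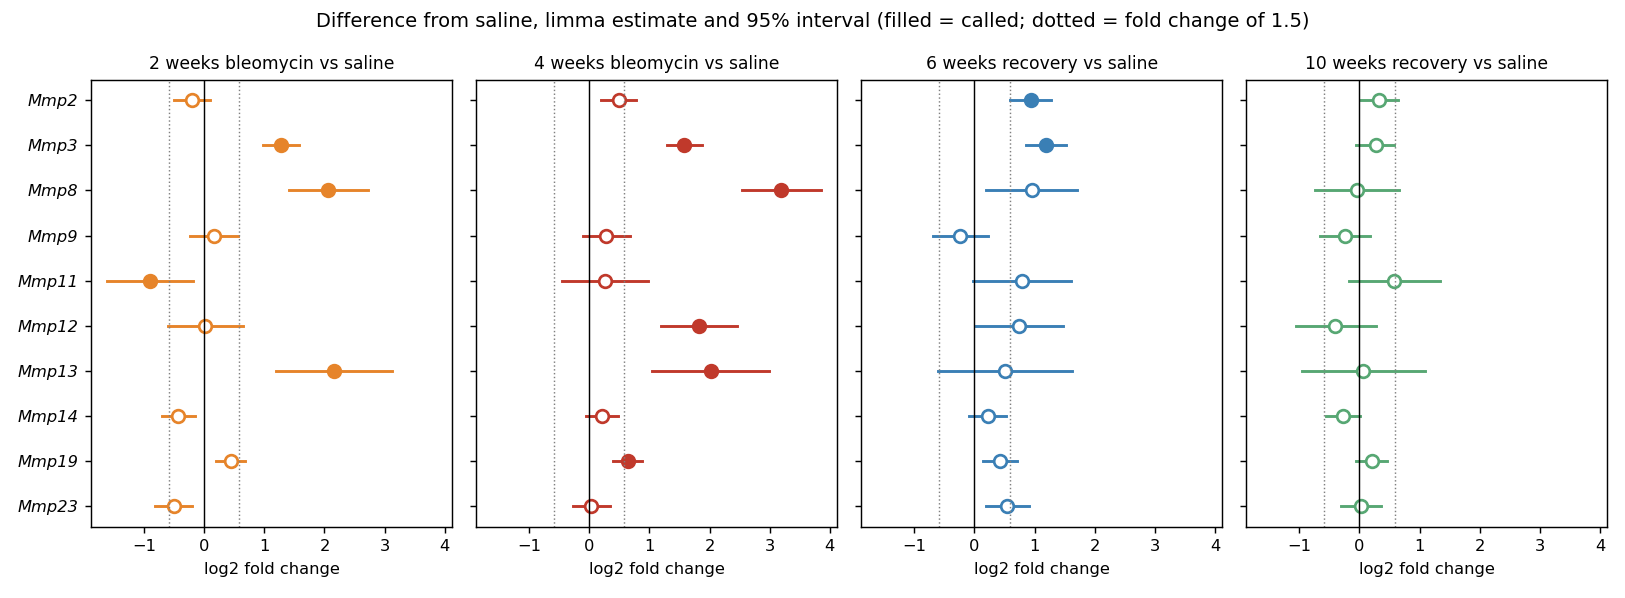
Log2 fold change of each gene against saline with its 95% interval from limma, 1 panel per group; filled points passed the call and dotted lines mark a fold change of 1.5. The intervals of Mmp3, Mmp8 and Mmp13 lie right of 0 in both panels for bleomycin, Mmp12 does so at 4 weeks, and no point is filled at 10 weeks of recovery.

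Collagenases start the breakdown of fibrillar collagen, and Mmp8 and Mmp13 are the members of that class. Both were called higher at 2 and at 4 weeks of bleomycin and lower at 6 weeks of recovery than at 4 weeks of bleomycin. Mmp8, the collagenase that neutrophils are known to store, was the gene of lowest level, with 0 to 6.84 normalized counts with saline (median 1.53, with 0 reads in 2 mice). It ranged from 5.87 to 21.3 at 2 weeks (median 11.2), from 13.2 to 38.7 at 4 weeks (median 23.5), from 1.6 to 9.88 at 6 weeks of recovery (median 4.71) and from 0 to 4.45 at 10 weeks of recovery (median 1.87).
All 10 mice at 4 weeks lay above every saline mouse and above all 6 mice at 6 weeks of recovery, while at 2 weeks 8 of 10 mice lay above the saline range. The log2 fold change against saline was 2.06 (standard error 0.32, adjusted p = 1.69e-06, limma) at 2 weeks and 3.19 (0.32, adjusted p = 8.67e-11, limma) at 4 weeks. Between 4 and 2 weeks it was 1.13 (0.32, adjusted p = 0.0304, limma), a call that was lost with a pseudocount of 0.1 (adjusted p = 0.246) and without the filter on low values (adjusted p = 0.0519). At 6 weeks of recovery Mmp8 was lower than at 4 weeks of bleomycin by a log2 fold change of -2.23 (0.37, adjusted p = 1.25e-05, limma). The change of so low a gene is understated on this scale, and no mouse had more than 42 reads of it.

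Mmp13, the collagenase of broad reach over interstitial collagens, was also low with saline, from 1.29 to 43.6 normalized counts (median 14.1). At 2 weeks of bleomycin it ranged from 9.25 to 331 (median 66.6), and at 4 weeks from 22.5 to 104 (median 45.8). In recovery it ranged from 7.18 to 23.1 at 6 weeks (median 22.5) and from 5.1 to 28.4 at 10 weeks (median 12.1).
The groups overlapped: 6 of 10 mice at 2 weeks and 6 of 10 at 4 weeks lay above the highest saline mouse, and mice 3, 9 and 10 at 2 weeks stood at saline levels (9.25, 11.4 and 14.1). The log2 fold change was 2.16 (standard error 0.48, adjusted p = 0.000352, limma) at 2 weeks and 2.02 (0.48, adjusted p = 0.000757, limma) at 4 weeks. Between those times it was -0.14, with a 95% interval from -1.11 to 0.83. Mice at 6 weeks of recovery were lower than those at 4 weeks of bleomycin by a log2 fold change of -1.51 (0.55, adjusted p = 0.0391, limma), and this call was lost without the filter on low values (adjusted p = 0.0638).

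Stromelysins cut proteoglycans, fibronectin and laminin and can activate other metalloproteinases, and Mmp3 is their main member. Mmp3 was the only one of the 10 called higher in both groups under bleomycin and at 6 weeks of recovery. It ranged from 272 to 679 normalized counts with saline (median 346), from 668 to 1662 at 2 weeks of bleomycin (median 824) and from 795 to 1411 at 4 weeks (median 1103). The range was 602 to 1080 at 6 weeks of recovery (median 908) and 355 to 635 at 10 weeks (median 412).
The 4-week mice did not overlap the saline mice, and at 2 weeks the overlap was a single pair, saline mouse 2 at 679 and bleomycin mouse 3 at 668. The log2 fold change was 1.27 (standard error 0.15, adjusted p = 2.12e-09, limma) at 2 weeks, 1.58 (0.15, adjusted p = 6.5e-12, limma) at 4 weeks and 1.19 (0.17, adjusted p = 5.71e-06, limma) at 6 weeks of recovery. At 10 weeks of recovery it was 0.27, with a 95% interval from -0.05 to 0.58. From 6 to 10 weeks of recovery Mmp3 fell by 0.92 on the log2 scale (adjusted p = 0.0104, limma), and 7 of 8 mice at 10 weeks lay below every mouse at 6 weeks.

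Mmp11, also called stromelysin-3 and known for its expression in stromal cells, had single mice far above the rest of their group. With saline 9 mice ranged from 128 to 263 normalized counts and mouse 8 stood at 1465. At 10 weeks of recovery mouse 6 stood at 1849 and mouse 8 at 798, while the median of that group was 266. The range was 71.1 to 175 at 2 weeks (median 138), 137 to 439.5 at 4 weeks (median 254) and 249.6 to 801 at 6 weeks of recovery (median 357).
At 2 weeks 4 of 10 mice lay below every saline mouse, and the log2 fold change was -0.90 (standard error 0.35, adjusted p = 0.0406, limma). That call rested on single mice: it was -0.60 without saline mouse 8 (adjusted p = 0.126) and -0.83 without mouse 5 at 2 weeks (adjusted p = 0.0742, limma), and it was lost without the filter on low values (adjusted p = 0.064). Between 4 and 2 weeks the log2 fold change was 1.17 (0.35, adjusted p = 0.0402, limma), with 9 of 10 mice at 4 weeks above the whole 2-week range. This call was lost with edgeR (adjusted p = 0.0725), without the filter (adjusted p = 0.0626) and without mouse 5 at 2 weeks (adjusted p = 0.0778, limma). At 6 weeks of recovery it was 0.79 and not called (adjusted p = 0.222, limma), but 1.09 and called without saline mouse 8 (adjusted p = 0.0395).

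**Figure D3:**
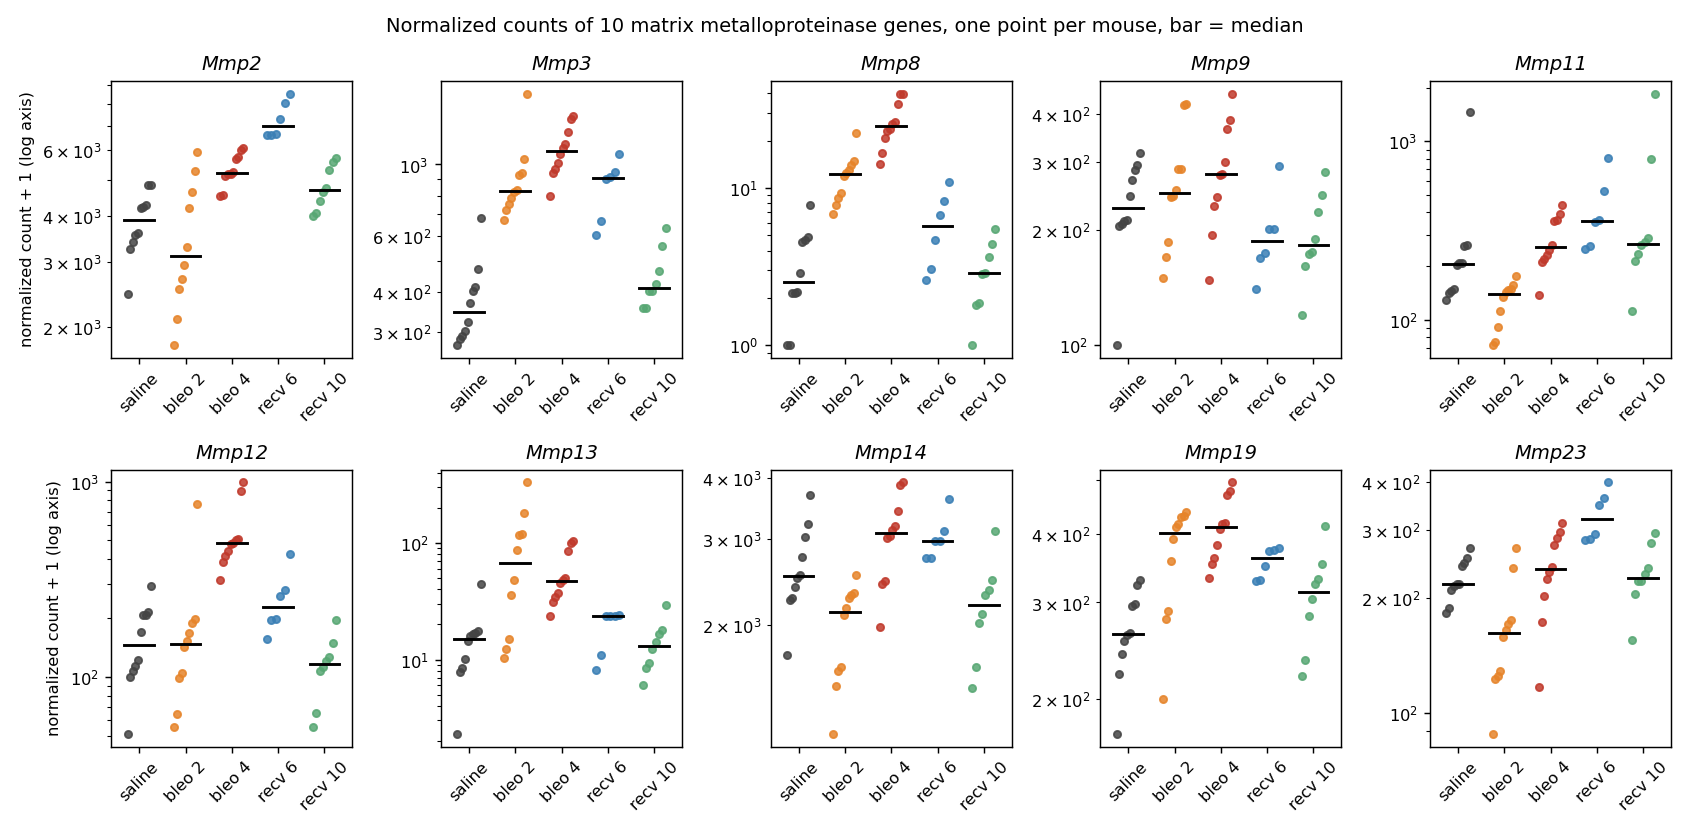
Normalized count plus 1 of each gene on a log axis, 1 point per mouse sorted within its group, with a bar at the group median; the groups are saline, bleomycin for 2 and 4 weeks (bleo) and 6 and 10 weeks of recovery (recv). Mmp3, Mmp8, Mmp12 and Mmp19 show 4-week mice wholly above the saline mice, and single high mice stand out for Mmp11 and Mmp12. The share of all genes tested with such a separation was not counted.

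Mmp12, the macrophage elastase, differed between the 2 times of bleomycin. It ranged from 50.1 to 291 normalized counts with saline (median 145) and from 54.5 to 197 in 9 mice at 2 weeks, with mouse 5 of that group at 766 (group median 146). At 4 weeks the range was 311 to 990.0 (median 482), at 6 weeks of recovery 156 to 427 (median 228) and at 10 weeks 54.3 to 194 (median 115). The 4-week mice all lay above the saline mice, and above 9 of 10 mice at 2 weeks.
The log2 fold change against saline was 0.02 at 2 weeks, with a 95% interval from -0.61 to 0.65, and -0.25 without mouse 5. At 4 weeks it was 1.83 (standard error 0.31, adjusted p = 7.52e-06, limma). The direct comparison of 4 with 2 weeks gave 1.82 (0.31, adjusted p = 0.000387, limma) and 2.08 without mouse 5 at 2 weeks. At 6 weeks of recovery Mmp12 was lower than at 4 weeks of bleomycin by -1.08 (0.36, adjusted p = 0.0229, limma), and 5 of 6 mice lay below the 4-week range.

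Gelatinases cut denatured collagen and the type IV collagen of basement membranes, and Mmp2 and Mmp9 are both of them. Mmp2 ranged from 2459 to 4851 normalized counts with saline (median 3890), from 1783 to 5944 at 2 weeks (median 3116) and from 4526 to 6102 at 4 weeks (median 5220). At 6 weeks of recovery all 6 mice (6591 to 8544, median 6982) lay above every mouse of saline, 4 weeks of bleomycin and 10 weeks of recovery (4000 to 5730, median 4688). Mmp2 was thus highest after treatment had stopped, whereas the 2-week mice spread around the saline range, 2 above it and 2 below.
At 6 weeks of recovery the log2 fold change of Mmp2 against saline was 0.94 (standard error 0.17, adjusted p = 0.000245, limma). At 4 weeks it was 0.49 (adjusted p = 0.00715, limma), under the fold change threshold, with 8 of 10 mice above the saline range. From 2 to 4 weeks it was 0.69 (0.15, adjusted p = 0.00325, limma). From 6 to 10 weeks of recovery it was -0.61 (0.18), not called with all groups in the fit (adjusted p = 0.179, limma) and called with only these groups (adjusted p = 0.0108).
Mmp9, the gelatinase of white blood cells and keratinocytes, was called in none of the 7 comparisons by limma, edgeR or DESeq2. It ranged from 99 to 316 with saline (median 227), where mouse 1 was the lowest and the other 9 were at 203 or more. The medians of the other groups were 248 and 277 at 2 and 4 weeks of bleomycin and 186 and 181 at 6 and 10 weeks of recovery, and every pair of groups compared overlapped. Its log2 fold change was 0.17 at 2 weeks (95% interval -0.23 to 0.56) and 0.28 at 4 weeks (-0.11 to 0.68). The comparison of 6 weeks of recovery with 4 weeks of bleomycin gave -0.52 (unadjusted p = 0.0258, adjusted p = 0.0858, limma).

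Mmp14 is a membrane-type metalloproteinase that cuts collagen at the cell surface and is known to activate proMmp2, and Mmp23 is a membrane-anchored member of divergent structure. Mmp14 ranged from 1731 to 3691 normalized counts with saline (median 2518), from 1192 to 2531 at 2 weeks (median 2129) and from 1981 to 3926 at 4 weeks (median 3086). The medians in recovery were 2973 at 6 weeks and 2199 at 10 weeks. It was higher at 4 than at 2 weeks by 0.64 (standard error 0.13, adjusted p = 0.00279, limma), with 7 of 10 mice above the 2-week range. Against saline it was -0.43 at 2 weeks (adjusted p = 0.00915, limma) and 0.21 at 4 weeks (adjusted p = 0.231, limma), neither of them called.
Mmp23 ranged from 181 to 269 with saline (median 216), from 87.1 to 268 at 2 weeks (median 161) and from 116 to 312 at 4 weeks (median 236). At 6 weeks of recovery all 6 mice (282 to 399, median 319.7) lay above every saline mouse, and at 10 weeks the range was 154 to 294 (median 224). Its log2 fold change at 6 weeks of recovery was 0.55 (adjusted p = 0.0391, limma), just under the fold change threshold of 0.585. With the replicate number as a block it was 0.65 and called (adjusted p = 0.0107). At 2 weeks it was -0.51 (adjusted p = 0.00699, limma), with 8 of 10 mice below every saline mouse and no call.

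Mmp19, a soluble member that cuts basement membrane and matrix proteins, had log2 fold changes against saline of at most 0.64. It ranged from 172 to 329 with saline (median 262), from 199 to 437 at 2 weeks (median 401) and from 331 to 495 at 4 weeks (median 411). It ranged from 327 to 376 at 6 weeks of recovery (median 359.8) and from 219.8 to 412 at 10 weeks (median 313). The 4-week mice did not overlap the saline mice, although the lowest of them stood at 331 against 329 for the highest saline mouse.
Its log2 fold change was 0.64 at 4 weeks (standard error 0.12, adjusted p = 3.55e-05, limma), which met the fold change threshold, and 0.57 without saline mouse 1 and 2-week mouse 2 (adjusted p = 0.000102), which did not. At 2 weeks it was 0.44 (adjusted p = 0.00351) and at 6 weeks of recovery 0.43 (adjusted p = 0.0398, limma), both under the threshold.

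Of the other genes of the family, 7 were tested. Of these, 1, 3, 1 and 0 were higher against saline at 2 and 4 weeks of bleomycin and 6 and 10 weeks of recovery, and 1 was lower, at 10 weeks of recovery. The median log2 fold changes of these 7 were 0.06, 0.03, 0.45 and -0.01. Mmp10, a stromelysin whose gene lies next to Mmp8 in the cluster, ranged from 0 to 4.83 normalized counts with saline, from 1.14 to 34.4 at 2 weeks and from 5.87 to 14.7 at 4 weeks. Its log2 fold changes were 2.06 and 2.19 (adjusted p = 3.04e-05 and 1.18e-05, limma).
Mmp25, a membrane-type enzyme known from white blood cells, rose at 4 weeks (0.81, adjusted p = 0.0215, limma), and Mmp17, another membrane-type enzyme, rose at 4 weeks (0.62, adjusted p = 0.0133) and at 6 weeks of recovery (0.79, adjusted p = 0.024, limma). Mmp27, also in the chromosome 9 cluster, fell by 1.13 on the log2 scale at 10 weeks of recovery (adjusted p = 0.000497, limma), where it ranged from 37.1 to 106 normalized counts, against 90.6 to 263 with saline. Mmp10 and Mmp25 were lower at 6 weeks of recovery than at 4 weeks of bleomycin, with log2 fold changes of -1.69 and -0.97 (adjusted p = 0.00377 and 0.0237, limma).

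Inhibitors of these enzymes moved in both directions. Of 5 tested, 1 was higher and 3 lower at 2 weeks (median -0.72), and 1 was higher and 1 lower at 4 weeks (median -0.31). Timp1, a secreted inhibitor, ranged from 43.8 to 109 normalized counts with saline, from 235 to 2429 at 2 weeks and from 261 to 616 at 4 weeks, with log2 fold changes of 2.69 and 2.38 (adjusted p = 3.78e-13 and 1.42e-11, limma). Timp2, which takes part in the activation of proMmp2 by Mmp14, fell by 0.79 at 2 weeks (adjusted p = 1.26e-05, limma), and Timp4 and the membrane inhibitor Reck fell by 1.31 and 0.72 (adjusted p = 0.000688 and 0.000601, limma). In recovery their log2 fold changes against saline lay between -0.49 and 0.58 at 6 weeks (median 0.24) and between -0.56 and 0.22 at 10 weeks (median 0.02).
Of 10 tested activators and partners, 2 were higher and 2 lower at 2 weeks (median -0.06) and 2 higher and 1 lower at 4 weeks (median 0.06). Lcn2, which binds Mmp9, had log2 fold changes of 4.94 and 3.64 (adjusted p = 3.77e-13 and 1.77e-09, limma), and Plaur, the urokinase receptor, of 1.16 and 1.52 (adjusted p = 5.1e-09 and 3.62e-12, limma). The collagen receptor gene Mrc2 and the plasminogen activator gene Plat fell at 2 weeks, with log2 fold changes of -0.61 and -0.60 (adjusted p = 0.00139 and 1.91e-05, limma). At 4 weeks the integrin gene Itgb3 was at -0.65 (adjusted p = 1.84e-05, limma).
Of 9 matrix genes listed as substrates, 6 were lower at 2 weeks (median -0.71), 1 was lower at 4 weeks (median -0.00), and 5 were higher at 4 than at 2 weeks (median 0.79). Eln, the gene of elastin, was at -1.44 at 2 weeks and -1.04 at 4 weeks (adjusted p = 3.36e-07 and 8.12e-05, limma). Fn1, the gene of fibronectin, was at -1.13 at 2 weeks (adjusted p = 8.21e-06, limma) and at 0.82 at 6 weeks of recovery (adjusted p = 0.0151, limma). Col1a1, Col1a2 and Col3a1 of this list are also in the fibroblast list used next.
Of 10 genes of transcription factors that act on promoters of the family, 2 were higher at 2 weeks (median 0.13), 3 at 4 weeks (median 0.23), none at 6 weeks of recovery (median 0.13) and 2 at 10 weeks (median 0.14). Fos was at 1.16, 1.09 and 1.01 at 2 weeks, 4 weeks and 10 weeks of recovery (adjusted p = 7.19e-06, 2.14e-05 and 0.00217, limma). Fosb had the largest log2 fold change of the list at 4 weeks of bleomycin (1.33) and at 10 weeks of recovery (2.08). Its normalized counts ranged from 14.2 to 49.5 with saline, 16 to 259.6 at 4 weeks and 22.7 to 254 at 10 weeks of recovery. Fosl1 was at 0.60 and 1.00 at 2 and 4 weeks (adjusted p = 0.0496 and 0.00106, limma). Their part in the levels of the 10 genes was not tested.

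Markers of cell types moved with the groups. The mean log2(normalized count + 1) of 10 matched neutrophil markers of 11 was 1.82 to 3.05 with saline, 3.12 to 6.04 at 2 weeks, 3.23 to 4.23 at 4 weeks, 2.29 to 3.01 at 6 weeks and 1.91 to 2.42 at 10 weeks of recovery. Of the 7 tested, 6 were higher at 2 weeks and 4 at 4 weeks. The list of 12 macrophage markers was at 9.16 to 10.31 with saline, 9.99 to 11.67 at 2 weeks, 10.31 to 11.12 at 4 weeks, 9.52 to 9.96 at 6 weeks and 9.21 to 9.77 at 10 weeks of recovery, with 9 of 12 higher and 1 lower at each time of bleomycin. The lower one was Cd163, a scavenger receptor of resident macrophages, with medians of 961 normalized counts with saline and 470.3 and 285 at 2 and 4 weeks. Its medians were 258 and 343 at 6 and 10 weeks of recovery, where 1 of the 12 macrophage markers was lower at each time. Both lists were higher under bleomycin, as were Mmp3, Mmp8 and Mmp13. At 6 weeks of recovery the median log2 fold change against saline was 0.08 for the macrophage list and -0.22 for the neutrophil list. For 4 against 2 weeks of bleomycin these medians were -0.06 and -0.30.
The 10 fibroblast markers were at 11.93 to 13.04 with saline, 11.40 to 12.61 at 2 weeks and 11.86 to 12.59 at 4 weeks. In recovery they were at 12.53 to 13.01 at 6 weeks and 11.99 to 12.55 at 10 weeks. Of the 10, 5 were lower at 2 weeks, 2 at 4 weeks and 1 at each time of recovery. Pdgfra had medians of 1425 normalized counts with saline, 576 and 586 under bleomycin, and 658 and 661 in recovery. The 13 matched markers of the growing hair follicle, of 15, were at 6.67 to 13.04 with saline, 3.13 to 6.89 at 2 weeks, 3.44 to 7.81 at 4 weeks, 4.00 to 11.63 at 6 weeks and 6.36 to 12.20 at 10 weeks of recovery, and all 13 were lower at both times of bleomycin. Fat cell markers (8) were lower in 3 genes at 2 weeks and 4 at 4 weeks, T cell markers (7) higher in 4 and 1, and endothelial markers (8) higher in 2 and 2. The mean of the 10 keratinocyte markers, which mark epidermis, lay between 11.44 and 12.45 in every mouse of the saline and bleomycin groups. That of skeletal muscle markers lay between 13.08 and 14.83. At 4 weeks 1 of 9 tested keratinocyte markers was lower and 1 of 7 tested muscle markers higher, and at 2 weeks none was called. Ivl had medians of 2058 normalized counts with saline and 957 at 4 weeks, and Flg was near 0, with at most 2.88. No marker of the neutrophil, macrophage, fibroblast or hair follicle lists was at 0 in all mice of a group. The neutrophil markers Mpo, Elane and Ngp were nevertheless near 0, with group medians of at most 2.08 normalized counts, and were kept in the mean of their list. The part of these cells in the group differences of the 10 genes was not tested.

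Within groups, the deviation of each mouse from its group mean was compared between the 10 genes and the neutrophil, macrophage, fibroblast and growing hair follicle lists, 40 relations in all over 44 mice (permutation within groups). Of these, 8 passed an adjusted p of 0.05 by both r and rho. The lists hold none of the 10 genes, but the genes of a mouse share its library and size factor.
Mmp2 followed the fibroblast list with a Pearson r of 0.90 and a Spearman rho of 0.89 (both p = 1e-05, the smallest that 100000 permutations give, adjusted p = 0.0002), and leaving out the 2 mice with the most extreme list levels gave an r of 0.89. Within single groups r was 0.96, 0.95, 0.64, 0.91 and 0.88 from saline to 10 weeks of recovery. Mmp23 followed the same list with an r of 0.85 and a rho of 0.86 (both permutation p = 1e-05, adjusted p = 0.0002). With those 2 mice left out its r was 0.83, and within single groups it ran from 0.77 to 0.96. Both genes thus were high in the mice with high fibroblast markers in each group.
Mmp14 also followed fibroblast markers, with an r of 0.66 (permutation p = 2e-05, adjusted p = 0.000267), a rho of 0.66 (p = 4e-05, adjusted p = 0.000533). With the 2 most extreme mice left out r was 0.72. Mmp11 did so less closely, with an r of 0.37 (permutation p = 0.00852, adjusted p = 0.0426) and a rho of 0.43 (p = 0.00384, adjusted p = 0.0219). Its r was also 0.37 without the 2 farthest. In the 10-week recovery group, where mice 6 and 8 were high, r of Mmp11 was -0.18.
Mmp19 followed the macrophage list, with an r of 0.61 (permutation p = 0.00013, adjusted p = 0.0013), a rho of 0.57 (p = 0.00015, adjusted p = 0.0015). With the 2 most extreme mice left out r was 0.68. Mmp3 did so with an r of 0.56 (permutation p = 0.00046, adjusted p = 0.00368) and a rho of 0.48 (p = 0.00163, adjusted p = 0.013). For Mmp3 r was 0.39 without the 2 farthest mice, and 0.40 and no longer past the threshold without saline mouse 1 and 2-week mouse 2 (adjusted p = 0.0507, permutation).
With the deviations of all groups pooled, Mmp3 and Mmp9 ran against the growing hair follicle list. For Mmp3 r was -0.47 (permutation p = 0.00191, adjusted p = 0.0109), the rank correlation rho was -0.43 (p = 0.00468, adjusted p = 0.0234), and r was -0.44 with the 2 most extreme mice left out. For Mmp9 r was -0.48 (permutation p = 0.00079, adjusted p = 0.00527), and the rank correlation was -0.46 (permutation p = 0.00215, adjusted p = 0.0143). Its r was -0.40 with those 2 left out. Single groups were uneven: from saline to 10 weeks of recovery, r of Mmp3 was -0.55, -0.24, -0.09, -0.73 and -0.73. That of Mmp9 was -0.49, 0.10, -0.53, -0.78 and -0.85. Mmp8 and the neutrophil list had an r of 0.31 (permutation p = 0.0151, adjusted p = 0.0673) and a rho of 0.37 (p = 0.0128, adjusted p = 0.0567), short of the threshold, and Mmp12 and the macrophage list an r of -0.08 (permutation p = 0.691, adjusted p = 0.813) and a rho of -0.12 (p = 0.45, adjusted p = 0.667).

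**Figure D4:**
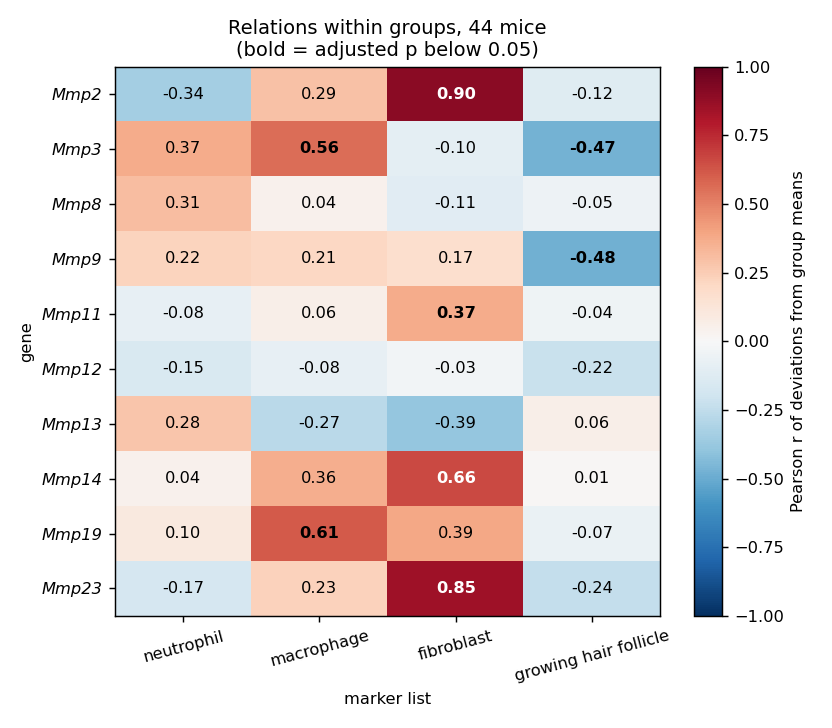
Pearson r between the deviations of each gene and of each marker list from their group means over 44 mice, with bold values where the adjusted permutation p was below 0.05. Mmp2, Mmp14 and Mmp23 have their highest r with the fibroblast list, and Mmp3 and Mmp19 with the macrophage list.

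**Figure D5:**
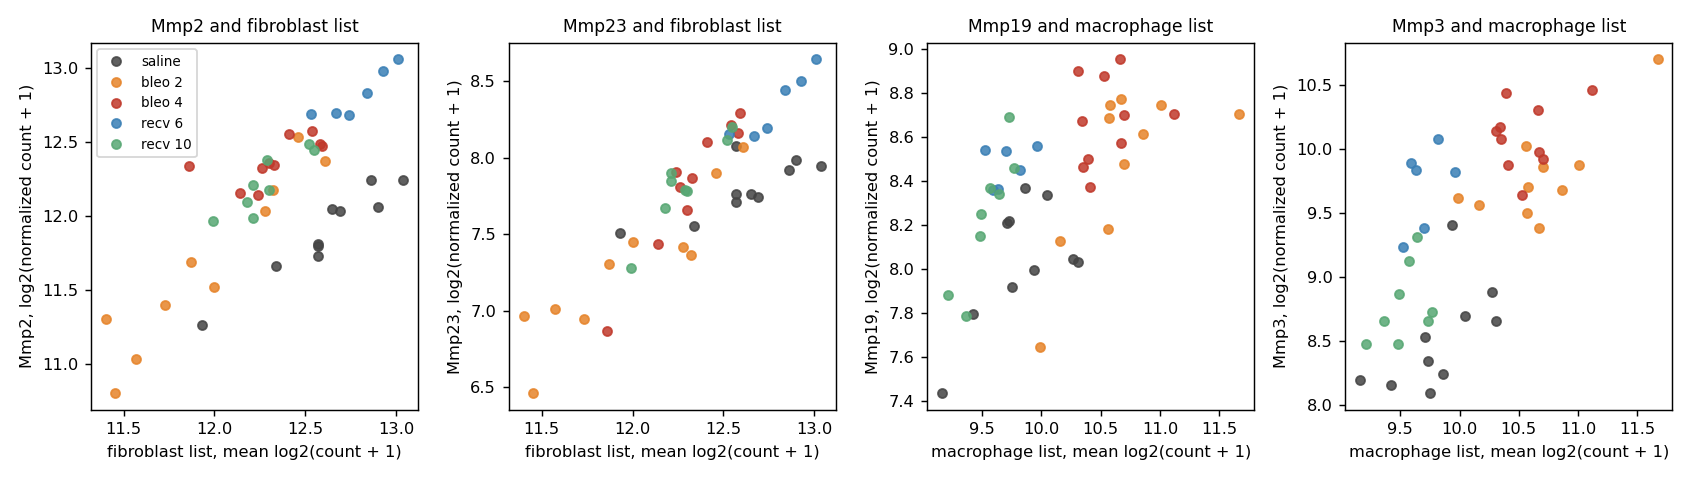
Level of Mmp2, Mmp23, Mmp19 and Mmp3 in log2(normalized count + 1) against the mean of the fibroblast or macrophage list on the same scale, 1 point per mouse, coloured by group (bleo, weeks of bleomycin; recv, weeks of recovery). Mmp2 rises with the fibroblast list in each group, and at a given level of the list the saline mice mostly lie lowest.

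The genes whose deviations from the group means were most like those of a member, among all genes tested and over the 44 mice, are given as a description. For Mmp2 they were Timp2 (r = 0.89), Olfml2b (0.88) and Ltbp1 (0.86). For Mmp14 they were Plbd2 (0.91), Mfge8 (0.90) and Emilin1 (0.89), and for Mmp23 they were Serpinf1 (0.91), Pcolce (0.90) and Pth1r (0.88).
For Mmp3 the nearest genes were Bet1l (0.76), Cst3 (0.74) and Vps26c (0.74), for Mmp19 Ifnar1 (0.74), Rassf2 (0.73) and Cyp20a1 (0.73), and for Mmp9 Bcl11b (0.68), Slc2a1 (0.67) and Slc27a3 (0.64). For Mmp11 they were Gm9789, Apoe and Smoc1 (each 0.79). Mmp13 was nearest to Krt6b (0.72), a keratin of wound-edge keratinocytes, Gm5416 (0.72) and Gm18445 (0.70). Mmp12 was nearest to the chemokine gene Ccl17 (0.63), F2rl2 (0.61) and Kctd4 (0.58), and Mmp8, at low counts, to Afmid (0.55), Tnf (0.54) and 1110032F04Rik (0.52).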

How the data were processed

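RNA-seq libraries of mouse back skin were analysed from the deposited table of normalized counts. Per the methods and the submitters' processing notes, the authors aligned reads to mm10 with STAR 2.4.0, counted them per gene and divided each mouse's counts by a DESeq2 (1.12.3) size factor; the deposited signal is thus in normalized counts. The counting tool, strand setting and annotation are not given in the sources used here. Whole reads were recovered for the count tests: 100.0% of values above 0 were whole within 0.1 read, although in 1 mouse the step between values did not name the unit by itself. No column was left unassigned (0). Reads per mouse were 8509094 to 15285577, and p-values measure the spread between mice. The closest pair of mice in a group had a chi-square per degree of freedom of 5.09, so none was counted as a duplicate. The labels name no batch.

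Genes with a mean above 3 were tested with limma 3.58.1 (mean-variance trend, R 4.3.3) on log2(normalized count + 1), all 5 groups in one fit, since normalized counts are not raw counts; the methods used DESeq2. On this scale the change of low genes is understated. Calls needed a fold change of more than 1.5 in either direction, with a Benjamini-Hochberg adjusted p below 0.05. Tested on simulated data of 17037 genes at the sizes of the 4-week comparison, limma recovered 87 of 100 genes changed by a fold of 2 and 100 of 100 changed by a fold of 4, and called 19 unchanged genes. The changed genes were drawn from those of higher level, and all genes had the same dispersion. This recovery therefore does not extend to low or more variable genes such as Mmp8 and Mmp13. DESeq2 1.42.0 and the quasi-likelihood test of edgeR 4.0.16 were run on recovered reads. Other alternatives were a pseudocount of 0.1, no filter, no fold change threshold, a TMM rescaling, a replicate block, fits to the compared groups alone and 42 mice; leaving out saline mouse 8 or 2-week mouse 5 was chosen after seeing the data. Relations used deviations from group means, with two-sided permutations within groups (100000 resamples) adjusted over 40 relations.

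The genes named are the 10 members, called genes or genes at low level of the other lists, and for each member the 3 genes with the highest r of deviations. The members and lists were chosen with earlier results of these data known. Gene positions and exon lengths are from GENCODE on GRCm38, and 98.9% of identifiers matched a symbol; Mmp1a, Klkb1, Ly6g, Tchh, Krt85 and Ryr1 did not match 1 row and were left out. Tables and plots were made in Python 3.11.15 (scipy 1.17.1; numpy 2.4.6; matplotlib 3.10.9; pandas 2.3.3). Histology was not analysed here.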

Additional observations from a re-analysis of the deposited data

Results flagged for a closer look

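In 4 of 50 combinations of a gene and a group, 1 mouse stood apart on log2(normalized count + 1) by Dixon's criterion, and chance gives about 1 in 20. Mmp3 was at 1662 normalized counts in mouse 2 at 2 weeks of bleomycin, with the next mouse at 1040, and Mmp12 was at 766 in mouse 5 of that group, with the next at 197. With saline, Mmp11 was at 1465 in mouse 8, with the next at 263, and Mmp9 was at 99 in mouse 1, the lowest, with the next at 203.

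Genes whose level differed between the 2 times of bleomycin by the direct test (limma) were Mmp2 (log2 fold change of 4 against 2 weeks 0.69), Mmp8 (1.13), Mmp11 (1.17), Mmp12 (1.82) and Mmp14 (0.64). Between 10 and 6 weeks of recovery Mmp3 differed (-0.92).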

How the results depend on the processing

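Of 70 fold changes (10 genes in 7 comparisons), all 70 kept direction and call with the TMM rescaling, 69 with only the groups compared, 67 with the replicate block and 66 with DESeq2. Without the fold change threshold 7 of the 10 genes were called at 2 weeks and 4 at 6 weeks of recovery. For 6 weeks of recovery against 4 weeks of bleomycin 5 were called. Of all 17037 genes tested, 6063, 1547 and 4260 were called in these comparisons without that threshold. Without the filter 3 of the 10 were called between 4 and 2 weeks, beside 385 over all genes. With only the groups compared 2 were called between 10 and 6 weeks of recovery, beside 56 over all genes. Leaving out saline mouse 8 or 2-week mouse 5 gave 3 calls at 2 weeks and 5 at 4 weeks of bleomycin. It gave 2 to 3 at 6 weeks and 0 at 10 weeks of recovery, and 4 to 5 between 4 and 2 weeks. It gave 3 for 6 weeks of recovery against 4 weeks of bleomycin, and 1 between recovery times. Over all genes, in the same order, 2847, 3068, 978, 586, 397, 2036 and 13 were called without saline mouse 8. Without 2-week mouse 5 the totals were 2754, 3046, 853, 504, 325, 2029 and 16. Uncalled fold changes near 0 turned sign: with edgeR and DESeq2, Mmp11 at 4 weeks (-0.13 and -0.15), Mmp13 at 10 weeks of recovery (-0.12 and -0.12), Mmp14 for 6 weeks of recovery against 4 weeks of bleomycin (-0.02 and -0.01) and Mmp11 between recovery times (0.23 and 0.25). With a pseudocount of 0.1, Mmp8 at 10 weeks of recovery was 0.10. With 42 mice, Mmp12 at 2 weeks was -0.10 and Mmp23 at 10 weeks of recovery -0.01, and r was -0.03 for Mmp8 and -0.02 for Mmp11 with macrophage markers, -0.04 for Mmp14 with neutrophil markers and 0.04 for Mmp19 with hair follicle markers. Mmp12 at 2 weeks was -0.25 without mouse 5. The cause of these changes was not tested.
Replicate numbers did not pair the mice (correlations of -0.69 to 0.38, median 0.00, over 78 same-numbered pairs). With the replicate block Mmp13 at 10 weeks of recovery was -0.16, and Mmp23 was called at 6 weeks of recovery against saline (0.65) and against 4 weeks of bleomycin (0.61). Over all genes, calls numbered 2851, 3053, 859, 519, 400 and 2035 in the first 6 comparisons and 6063, 6242, 1547, 994, 956 and 4260 without the fold change threshold. At 10 weeks of recovery 326 were called with only the groups compared. Between recovery times 15 were called, but 63 with DESeq2, 56 with only the groups compared and 58 with 42 mice. Depth limits Mmp8, with 0 to 42 reads per mouse.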
